A study of Homo sapiens with 6 samples.

Results

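Regions bound by NeuroD1 or marked by H3K4me3 were examined around 10 genes of the neuroendocrine secretory programme in H82 and H524, 2 established human lines of small cell lung cancer. The genes were CHGA, CHGB, SCG2, SCG3, SYP, UCHL1, ENO2, DDC, PCSK1 and SEZ6. A region belonged to a gene when it lay within 50 kb of the gene's span in build hg19, which selected 75 of the 61250 regions in the 4 peak lists. The selection held 4 of 3854 NeuroD1 regions and 29 of 18208 H3K4me3 regions in H82, and 20 of 20593 NeuroD1 regions and 22 of 18595 H3K4me3 regions in H524. Both lines were cultured without treatment. Each list came from 1 chromatin immunoprecipitation library, with an antibody against NeuroD1 or against H3K4me3. A further input library per line, made without antibody, was not analysed here. With 1 library per line and antibody there was no spread between replicates, so no difference between the lines was tested and no p-value is given. The reads behind each list are unknown, and a listed region says nothing of the level of a transcript.

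Neuroendocrine cells store peptides and amines in dense-core granules and release them on stimulation. Granins (CHGA, CHGB, SCG2 and SCG3) are acidic proteins that pack these granules, and PCSK1 is a convertase that cuts prohormones inside them. SYP is a membrane protein of small synaptic-like vesicles, DDC makes dopamine and serotonin from their amino acid precursors, ENO2 is the neuronal form of the glycolytic enzyme enolase, UCHL1 is a neuronal deubiquitinating enzyme and SEZ6 is a neuronal membrane protein. Several of them serve pathologists as markers of small cell lung cancer. NeuroD1, of the basic helix-loop-helix family, recognises the E-box CANNTG and defines 1 subtype of this cancer, to which both lines are usually assigned. H3K4me3 is a histone mark of promoters in use.

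The promoter sequences below are shown because NeuroD1 lay at the start of UCHL1, SYP and PCSK1 in H524, whereas SCG3 and CHGA carried H3K4me3 at the start without NeuroD1 there. They are the 250 bases before the start of the gene, 5′ to 3′ on its own strand, from RefSeq in GRCh38.p14. This is another build than that of the peak lists, so positions were not compared between them. Capitals mark CANNTG, which reads the same on both strands, and the CREB element TGACGTCA, which also does. The table of promoters held 7 of the 10 genes, and CHGB, SCG2 and SEZ6 were not among them.
UCHL1 (chr4:41256678-41256927, plus strand): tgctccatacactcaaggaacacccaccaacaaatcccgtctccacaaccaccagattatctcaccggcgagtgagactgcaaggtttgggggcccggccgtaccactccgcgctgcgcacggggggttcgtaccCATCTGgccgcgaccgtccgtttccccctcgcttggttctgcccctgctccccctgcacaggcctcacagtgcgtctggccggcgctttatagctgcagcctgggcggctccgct
SYP (chrX:49200194-49200443, minus strand): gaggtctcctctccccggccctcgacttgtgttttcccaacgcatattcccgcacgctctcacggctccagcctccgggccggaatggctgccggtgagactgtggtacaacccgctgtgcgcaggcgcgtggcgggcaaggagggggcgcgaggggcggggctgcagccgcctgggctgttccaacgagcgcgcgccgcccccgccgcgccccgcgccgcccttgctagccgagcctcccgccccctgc
PCSK1, outer start (chr5:96433249-96433498, minus strand): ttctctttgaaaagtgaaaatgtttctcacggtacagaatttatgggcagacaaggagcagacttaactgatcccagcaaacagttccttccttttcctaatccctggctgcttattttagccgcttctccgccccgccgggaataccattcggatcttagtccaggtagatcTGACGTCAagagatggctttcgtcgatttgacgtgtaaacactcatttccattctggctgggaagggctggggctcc
PCSK1, inner start (chr5:96432161-96432410, minus strand): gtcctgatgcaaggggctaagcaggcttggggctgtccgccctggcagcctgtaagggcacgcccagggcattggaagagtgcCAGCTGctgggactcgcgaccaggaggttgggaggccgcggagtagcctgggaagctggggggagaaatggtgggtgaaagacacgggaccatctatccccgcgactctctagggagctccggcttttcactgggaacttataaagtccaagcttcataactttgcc
SCG3 (chr15:51681253-51681502, plus strand): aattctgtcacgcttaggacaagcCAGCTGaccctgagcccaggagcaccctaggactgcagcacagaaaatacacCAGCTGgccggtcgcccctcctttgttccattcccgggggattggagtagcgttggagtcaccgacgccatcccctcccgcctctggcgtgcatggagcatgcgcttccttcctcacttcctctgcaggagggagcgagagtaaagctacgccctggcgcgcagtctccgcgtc
CHGA (chr14:92922900-92923149, plus strand): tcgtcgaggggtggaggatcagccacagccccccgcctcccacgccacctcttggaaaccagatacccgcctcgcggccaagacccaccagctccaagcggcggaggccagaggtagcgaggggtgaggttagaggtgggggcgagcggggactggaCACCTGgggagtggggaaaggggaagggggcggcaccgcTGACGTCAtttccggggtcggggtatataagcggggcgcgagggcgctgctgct

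The UCHL1 promoter held 1 E-box, CATCTG, whose first base lay 115 bases before the start, and this form or its reverse complement CAGATG occurred in 12.2% of the 35116 promoters of the table at the same length. SYP had no CANNTG in its 250 bases, as did the outer of the 2 PCSK1 starts, while 61.8% of all promoters had at least 1. The inner PCSK1 start, 1.09 kb further into the gene, had CAGCTG 167 bases upstream. SCG3 had this form at 226 and 174 bases, and 4911 of all 35116 promoters had it. CHGA had CACCTG at 93 bases, ENO2 had CACATG at 72 and 1 of the 2 DDC starts had the overlapping forms CACATG and CATGTG at 50 and 48. In all, 6 of the 7 genes had CANNTG in at least 1 promoter. DDC and PCSK1 had 2 promoters each, 1 of them without CANNTG. This count per gene is therefore not comparable with the 61.8% per promoter. TGACGTCA was found in CHGA at 54 bases and at the outer PCSK1 start at 77 bases, against 1.65% of all promoters. Letters of this kind describe the sequence and do not locate a bound site.

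H3K4me3 was listed at the start of 8 of the 10 genes in at least 1 line and at 4 of them in both, whereas NeuroD1 at a start was listed in H524 alone. The H524 NeuroD1 list is 5.34-fold longer, and with it limited to the length of the H82 list no gene start had NeuroD1 in either line. A share over all gene starts was not computed, since gene positions in hg19 were not used here, so these counts have no reference among other genes. A region was counted at the start when it lay within 2 kb of the end of the span where transcription begins. The spans are rounded to 1 kb, so shorter distances are not resolved. CHGB, SCG3, SYP and SEZ6 had the mark at the start in both lines, UCHL1 and ENO2 in H82 alone, CHGA and PCSK1 in H524 alone, and SCG2 and DDC in neither. NeuroD1 lay at the start of SYP, UCHL1, PCSK1 and SEZ6 in H524 (4 of 10 genes, exact 95% interval 12.2 to 73.8%) and at none of the 10 in H82 (0 to 30.8%). At 3 of these 4 genes, SYP, PCSK1 and SEZ6, the NeuroD1 region overlapped the mark.

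**Figure D1:**
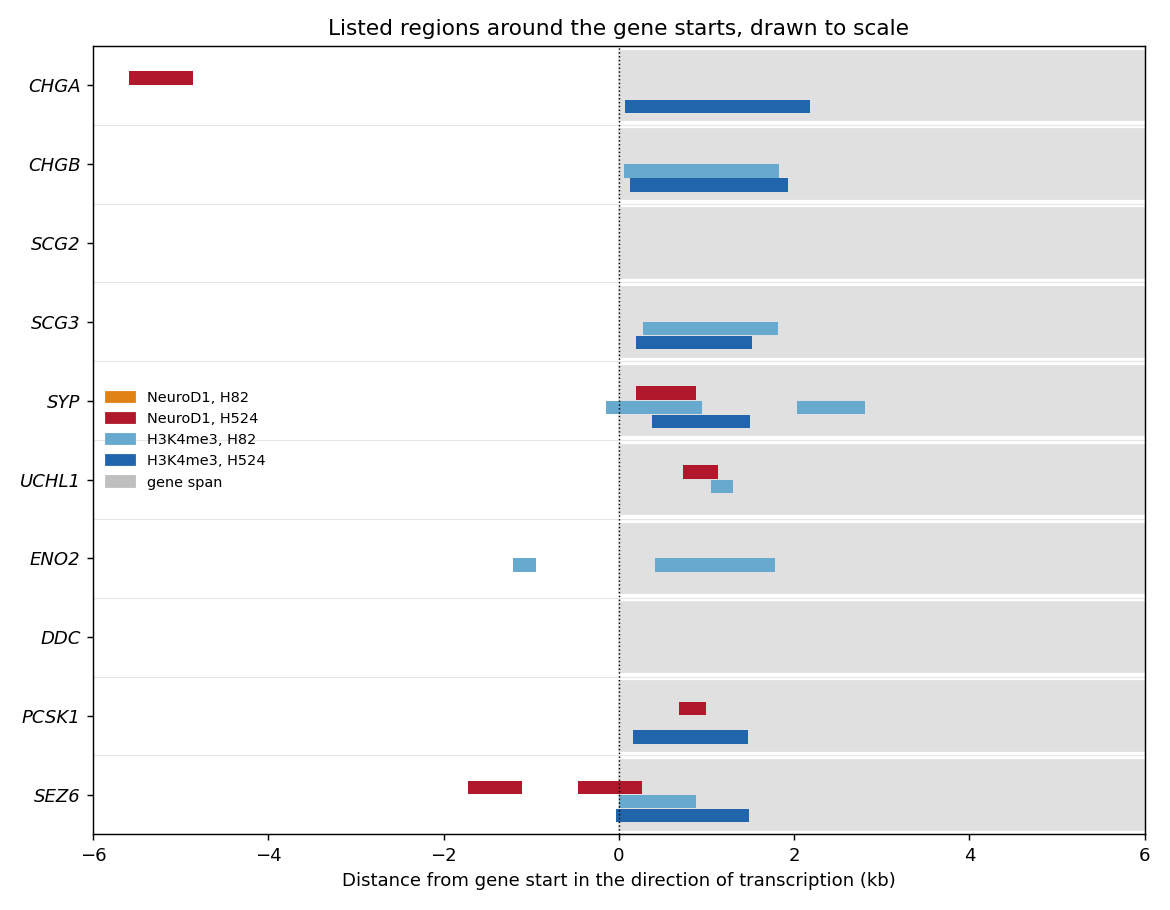
Regions of the 4 lists from 6 kb before to 6 kb after each gene start, drawn to scale. The horizontal axis gives the distance from the gene start in kb in the direction of transcription, each row is 1 gene, and the colours give line and antibody. Red bars of NeuroD1 in H524 lie within 2 kb of the start of SYP, UCHL1, PCSK1 and SEZ6, no orange bar of NeuroD1 in H82 appears, and the SCG2 and DDC rows are empty.

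Around CHGA, the granin most used as a tissue marker, every listed region came from H524. H3K4me3 covered chr14:93389066-93391178, 2113 bp wide with 4 summits, at the start of the gene. It scored 13.2, where the authors' score was read from its values as a −log10 q-value, and had rank 320 of 18595. NeuroD1 lay on both sides of the gene without touching the mark. The region chr14:93383404-93384142, 4.86 kb upstream, scored 21.8 with rank 475 of 20593. Another, chr14:93425353-93426351, 36.4 kb downstream of the start and 23.4 kb beyond the span, scored 22.5 with rank 450. These were the 2 highest-scoring NeuroD1 regions of all 20 around the 10 genes in H524. ITPK1 is the next protein-coding gene downstream in RefSeq, and neither region was assigned to a gene. The nearest regions of H82 were 174 kb away for H3K4me3 and 1412 kb away for NeuroD1, both upstream.

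CHGB carried the promoter mark in both lines over nearly the same stretch. The H82 region chr20:5892057-5893821 scored 9.57 with rank 1172, the H524 region chr20:5892121-5893932 scored 9.10 with rank 1370, and they shared 1701 bp. No NeuroD1 region was listed at the start in either line. Inside the gene, 8.91 kb from the start, H524 had a 1081 bp wide NeuroD1 region at chr20:5900913-5901993, which scored 4.04, close to the middle of its list (percentile 48.4). A second H524 NeuroD1 region, chr20:5931179-5931547, lay in the downstream flank within H3K4me3 of H524 (chr20:5930719-5931985, score 6.18). Its score of 1.39 gave it percentile 1.03, near the calling limit. The same flank held the highest-scoring H82 mark of this window, chr20:5930754-5932870, with a score of 9.63. In the gene order of RefSeq, TRMT6 and MCM8 follow CHGB on this side, and the mark was not assigned to a gene.

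SCG3, which binds CHGA and retains it at the granule membrane, had the mark at its start in both lines and NeuroD1 in H524 only away from it. H82 H3K4me3 at chr15:51973277-51974810 scored 12.7 with rank 386 of 18208, the highest of the 29 H82 regions around the 10 genes. The H524 counterpart chr15:51973195-51974521, with 4 summits, scored 9.05 with rank 1386, and 1245 bp were common to both. All 4 NeuroD1 regions of the window were from H524. The highest, chr15:52010149-52010735, lay inside the gene 37.1 kb from its start and scored 15.3 with rank 1186, and chr15:51939049-51939813 lay 33.2 kb upstream with a score of 7.34. The other 2, downstream, scored 1.47 and 2.37, below percentile 20. The last of these, 49.97 kb beyond the span, was the NeuroD1 region closest to the 50 kb limit, and PCSK1 had an H524 NeuroD1 region just outside it, at 50.6 kb. In H82 the nearest NeuroD1 region was 1325 kb from the SCG3 start.

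SCG2, the remaining granin, had no region of any list within 50 kb. Its nearest regions were all upstream, at 235 kb for H82 H3K4me3, 265 kb for H524 NeuroD1, 342 kb for H524 H3K4me3 and 437 kb for H82 NeuroD1. The 4 granins thus ranged from a window without any region to 2 genes whose start regions were in the highest 10% of their H3K4me3 lists in both lines, CHGB and SCG3.

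PCSK1, the convertase, had 1 region of each antibody in H524, both at the start and both low in their lists. H3K4me3 at chr5:95767530-95768844 scored 3.21 (percentile 40.3). NeuroD1 at chr5:95768002-95768318, 317 bp wide, lay wholly inside it and scored 2.04 (percentile 16.3). H82 had no region in the window, with the nearest H3K4me3 region at 227 kb and the nearest NeuroD1 region at 750 kb from the start. Ordered by the lowest coordinate of each protein-coding gene in RefSeq, CAST comes directly before PCSK1 and ERAP1 directly after it. This order does not show where CAST ends.

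SYP had both antibodies at its start in H524 and the mark alone in H82. NeuroD1 of H524 at chrX:49056123-49056801 scored 3.22 (percentile 36.5) and shared 505 bp with H3K4me3 at chrX:49055502-49056627, which scored 10.5 with rank 819. The H82 mark at the start, chrX:49056048-49057152, scored 2.09 and stood low in its list (percentile 17.0). It overlapped the H524 mark by 580 bp. The highest-scoring H82 region of the window lay 2.04 kb inside the gene at chrX:49054191-49054963, with a score of 6.01. A second pair of H524 regions overlapped behind the end of the gene, NeuroD1 at chrX:49042936-49043263 and H3K4me3 at chrX:49043071-49043329, with scores of 1.56 and 1.45. An antisense RNA gene, SYP-AS1, overlaps the SYP start in RefSeq, and the lists carry no strand.

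At SEZ6, 5 NeuroD1 regions were listed, 4 of them in H524, and the start carried H3K4me3 in both lines. NeuroD1 of H524 covered the start at chr17:27332738-27333469, with a score of 8.55 and rank 3902, and shared 301 bp with H3K4me3 of H524 at chr17:27331512-27333038 (score 8.52, rank 1811). A second H524 NeuroD1 region, chr17:27334106-27334724, lay 1.11 kb upstream outside the mark and scored 5.67. Inside the gene were chr17:27310777-27311218, the highest of the 4 with a score of 13.2 and rank 1617, and chr17:27299406-27300240 with a score of 8.29. H82 H3K4me3 at the start, chr17:27332121-27332997, lay entirely within the H524 region and scored 9.19 with rank 1349. The H82 NeuroD1 region, chr17:27378060-27378462, was 45.1 kb upstream and scored 1.88 (percentile 16.1). Its nearest H524 NeuroD1 region was 13.4 kb away. PIPOX is the next protein-coding gene upstream in RefSeq, and the H82 region was not assigned to a gene. Downstream, the H524 mark at chr17:27276135-27278470 scored 22.1 with rank 24 of 18595, the highest H3K4me3 rank in any of the 10 windows. It shared 1394 bp with an H82 region that scored 7.52. PHF12 is the next protein-coding gene on that side in RefSeq.

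**Figure D2:**
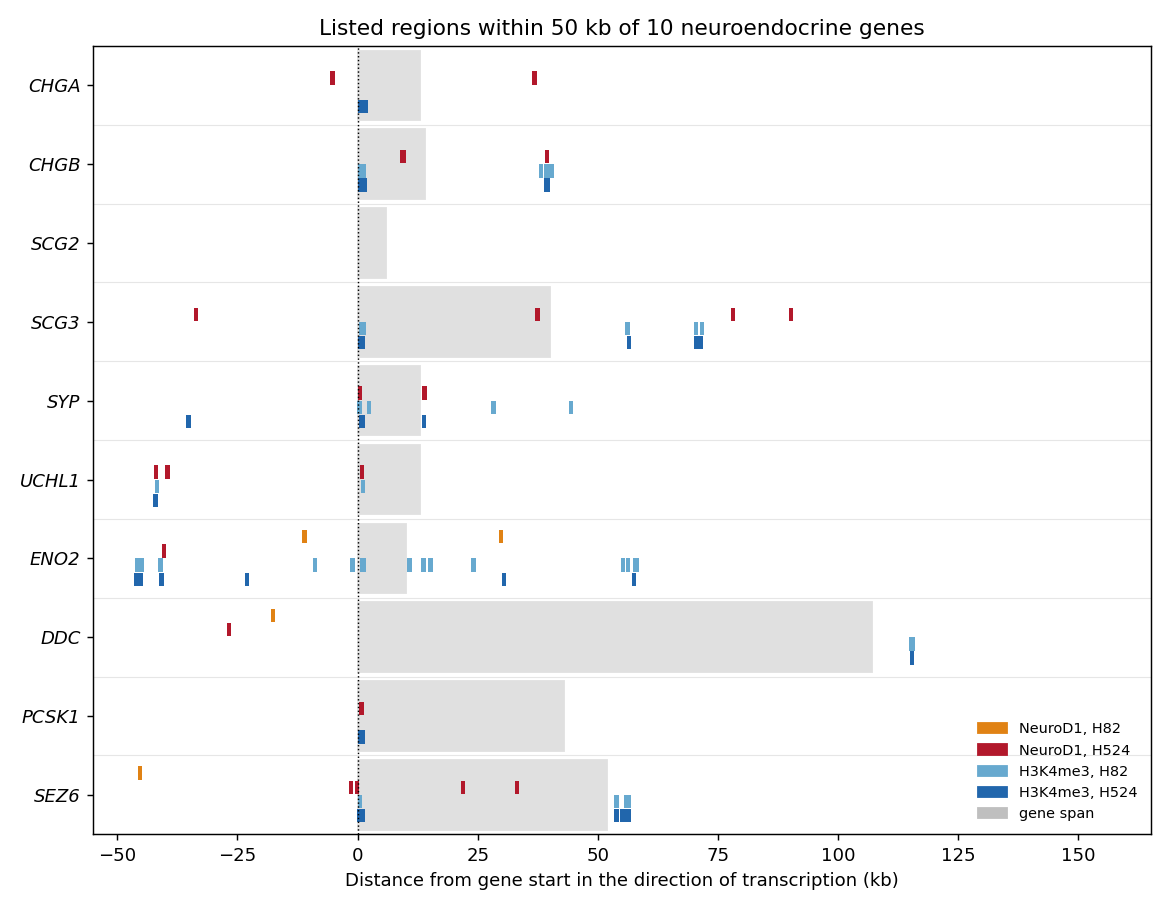
All regions within 50 kb of the 10 gene spans, with 1 row per gene. The horizontal axis is the distance from the gene start in kb in the direction of transcription, grey boxes are gene spans, and regions narrower than 0.9 kb are widened to 0.9 kb. ENO2 has the most regions, 21 over the 4 lists, SCG2 has none, and the orange bars of NeuroD1 in H82 appear at ENO2, DDC and SEZ6.

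At the start of UCHL1, H524 had NeuroD1 without the mark and H82 had the mark without NeuroD1. The H524 region, chr4:41258729-41259126, had a score of 4.39 (percentile 52.9), and the nearest H3K4me3 region of this line was 41.5 kb upstream of the start. H82 had a narrow H3K4me3 region at the start, chr4:41259050-41259306, 257 bp wide with a score of 2.83 (percentile 31.4), and its nearest NeuroD1 region was 318 kb away. The 2 start regions overlapped each other. In the upstream flank, H524 H3K4me3 at chr4:41215408-41216511 scored 7.95 with rank 2100 and contained a low NeuroD1 region of H524, chr4:41215970-41216260 (score 1.76). H82 H3K4me3 at chr4:41216139-41216503, score 3.59, lay within the same stretch. A further H524 NeuroD1 region, 39.2 kb upstream, scored 2.40. APBB2 is the next protein-coding gene upstream in RefSeq, and the RNA gene UCHL1-DT starts opposite UCHL1 from the same promoter.

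ENO2 lies among closely spaced genes, with LRRC23 before it and ATN1, C12orf57 and PTPN6 after it in RefSeq, and its window held 12 H82 and 6 H524 H3K4me3 regions. At the start itself, H82 alone had the mark, with chr12:7023415-7024778 at a score of 2.01 (percentile 15.6) and chr12:7021795-7022050 at 1.49 (percentile 6.42). These were among the lowest-ranked start regions of the 10 genes. The highest H3K4me3 regions of the window were in the flanks. Regions chr12:6976784-6978512 and chr12:7036544-7036886 of H82 both scored 6.01, and chr12:6977601-6978125 of H524 scored 6.80. H82 had 2 NeuroD1 regions, at chr12:7052675-7053098 with a score of 4.58 and at chr12:7011478-7012397 with 2.33, both outside H3K4me3. NeuroD1 of H524 lay at another place, chr12:6982469-6982911, scored 4.90 and shared 71 bp with H3K4me3 of H524 at the edge of a region that scored 2.80.

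DDC, the decarboxylase, had no region of either antibody inside its span or at its start in either line. RefSeq gives it 2 starts 4.33 kb apart, and neither had a listed region nearby. NeuroD1 was listed upstream once per line, at chr7:50650383-50650772 in H82 (17.4 kb from the start, score 4.92, percentile 67.8) and at chr7:50659568-50659874 in H524 (26.6 kb, score 3.22, percentile 36.5). These 2 regions were 8.80 kb apart. H3K4me3 lay beyond the other end of the gene, at chr7:50517005-50518237 in H82 (score 5.17) and at chr7:50517260-50518009 in H524 (score 6.80), and the narrower H524 region was contained in that of H82. FIGNL1 is the next protein-coding gene on that side in RefSeq. On the upstream side, where both NeuroD1 regions lay, it is GRB10, and neither region was assigned to a gene.

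Across the 10 genes, NeuroD1 was within 50 kb of 9 in H524 and of 3 in H82, and ENO2, DDC and SEZ6 were common to both. Bins of 113.5 kb, the median window size, were laid over the genome for reference. NeuroD1 of H524 occurred in 38.6% of the 25911 bins and NeuroD1 of H82 in 11.5%. Among bins that held H3K4me3 of the same line the shares were 60.8% and 25.9%. The 9 and 3 of 10 gene windows have 95% intervals of 55.5 to 99.7% and 6.67 to 65.2%, respectively. The H82 interval includes the H82 share over all bins, and the H524 interval does not include the H524 share over all bins. H3K4me3 was listed in 29.4% of the bins in H82 and in 32.3% in H524, and in 7 and 9 of the 10 gene windows. The shares among bins with the mark are a reference for these windows only. All 9 in H524 held NeuroD1, and 3 of the 7 in H82 did. No interval was computed for these counts. Windows and bins differ in size and in gene content. NeuroD1 regions numbered 5.00-fold more in H524 than in H82 around these genes, beside 5.34-fold over the whole lists. When the H524 list was limited to its 3854 highest-scoring regions, 4 remained in the windows, the same number as in H82, at CHGA, SCG3 and SEZ6, and none of them at a start.

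**Figure D3:**
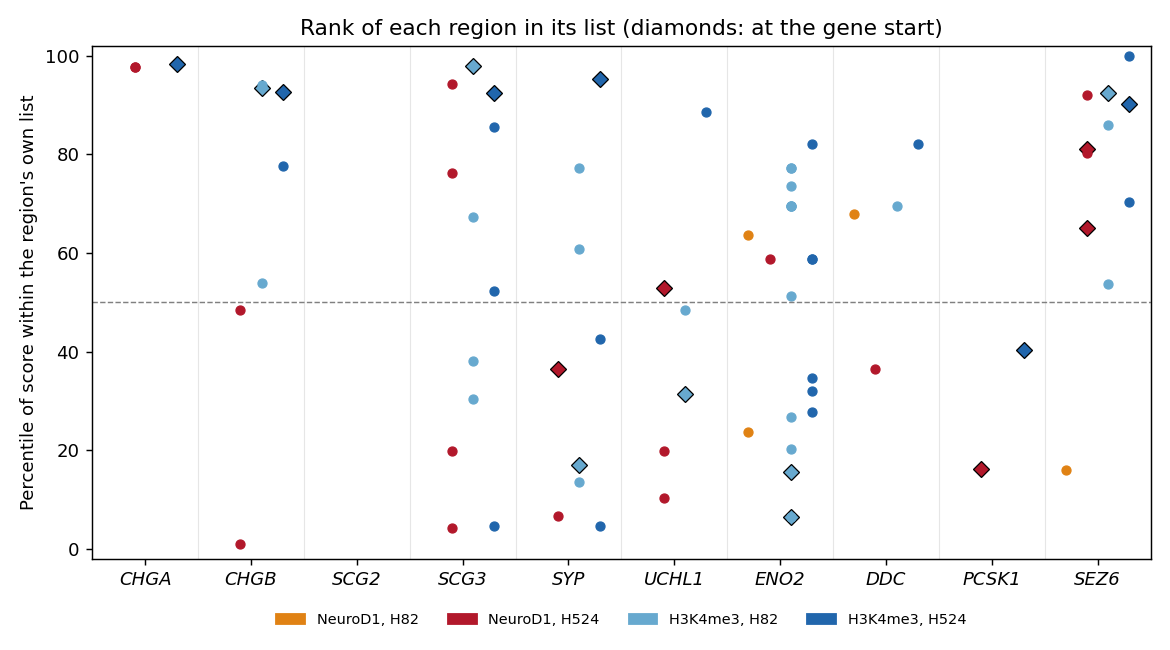
Percentile of each region's score within its own list (vertical axis, from 0 for the lowest to 100 for the highest) by gene, with diamonds for regions at a gene start and circles for the others. The dashed line is the middle of a list. The 2 NeuroD1 regions of CHGA in H524 coincide near 98, and NeuroD1 diamonds lie between 16.3 at PCSK1 and 81.1 at SEZ6.

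The NeuroD1 regions around the 10 genes stood near the middle of their lists. Their median percentile was 43.7 in H82 (range 16.1 to 67.8) and 50.7 in H524 (1.03 to 97.8). In H524, 4 of 20 were in the highest 10% of the list and 7 were below percentile 25. The 5 at gene starts were not among those 4, which lay in the flanks of CHGA and inside SCG3 and SEZ6. H3K4me3 regions stood higher, with a median percentile of 60.8 in H82 and 73.9 in H524, and medians over the lists of 48.5 and 50.1. They were also wider, 784 and 752 bp at the median, against 563 and 526 bp. At gene starts the H524 mark had a median width of 1427 bp (1126 to 2113) and a median percentile of 92.6 over 6 regions. The 7 start regions of H82 ranged from 256 to 1765 bp, with a median percentile of 31.4. The low H82 values belonged to ENO2, SYP and UCHL1, and the high ones to SCG3, CHGB and SEZ6. At SYP a higher H82 region (percentile 77.3) lay 2.04 kb from the start and was not counted. The spans are rounded to 1 kb, so its exclusion, on which the H82 median depends, is not resolved.

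No listed NeuroD1 region was common to both lines in any of the 10 windows. Of the 4 H82 regions 0 overlapped NeuroD1 of H524 (95% interval 0 to 60.2%), where 53.6% of the whole H82 list did. Of the 20 H524 regions 0 overlapped NeuroD1 of H82 (0 to 16.8%), where 9.98% of its list did. Both whole-list shares are inside these intervals, so with so few regions a difference from the lists was not detectable. For H3K4me3, 15 of 29 H82 regions had a counterpart in H524 (51.7%, 32.5 to 70.6), beside 52.4% of all H82 regions. From the H524 side it was 16 of 22 (72.7%, 49.8 to 89.3), beside 52.9% of that list, and both list values lie within the intervals. ENO2 alone held 12 of these 29 H82 regions, most of them without a counterpart, and 6 of these 22 in H524. Without ENO2, 17 and 16 H3K4me3 regions remained, and their overlap was not computed.

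NeuroD1 of H524 overlapped the mark of its line at 7 of 20 regions (35.0%, 15.4 to 59.2), beside 16.0% of the whole list, which lies within the interval. These were the regions at the starts of PCSK1, SYP and SEZ6 and those in the flanks of CHGB, SYP, UCHL1 and ENO2. Of these 7, 5 scored below the median of the NeuroD1 list. With both antibodies restricted to the upper part of their lists, from the median score up, the overlap was 1 of 11 (9.09%), that at the SEZ6 start, beside 11.1% of the whole NeuroD1 list under the same restriction. In H82, 0 of 4 NeuroD1 regions overlapped the mark (0 to 60.2%), where 29.4% of the list did. Of the H3K4me3 regions at gene starts, 3 of 6 in H524 (95% interval 11.8 to 88.2%) overlapped NeuroD1, beside 18.0% of all H3K4me3 regions of that line. In H82 it was 0 of 7 (0 to 41.0%), beside 6.34%. Both list values lie within the intervals. The lists are an unlike reference, since the start regions had median widths of 1427 bp in H524 and 1105 bp in H82. Over all H3K4me3 regions the medians were 526 and 563 bp. With H3K4me3 of the other line, 5 of 20 H524 NeuroD1 regions overlapped (95% interval 8.66 to 49.1%, list 15.6%) and 0 of 4 in H82 (list 15.9%).

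**Figure D4:**
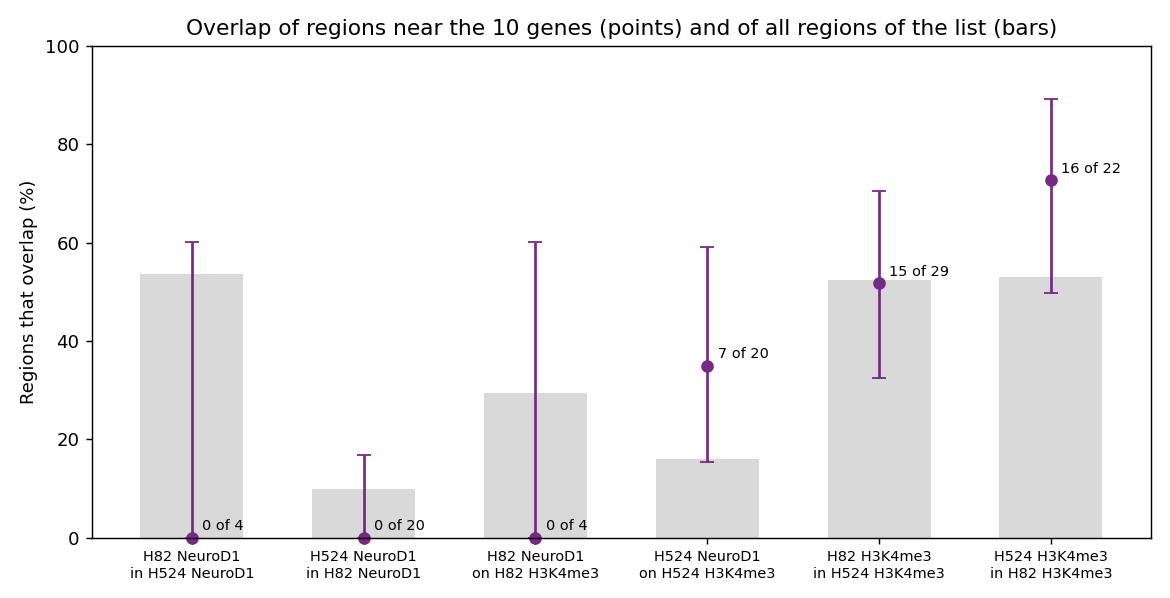
Share of regions that overlap a second list by at least 1 bp (vertical axis, percent). Points with bars are the regions within 50 kb of the 10 genes with exact 95% intervals, and grey columns are all regions of the same list. All 6 columns lie inside the interval of their point, from 0 of 4 H82 NeuroD1 regions to 16 of 22 H524 H3K4me3 regions.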

How the data were processed

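The 4 deposited peak lists, 1 library each, give an interval, a name and a score per summit. The score the authors deposited was read from its values as a −log10 q-value, since the lowest is 1.304 and −log10 of 0.05 is 1.301. The submitters' processing notes name hg19, Bowtie 1.1.2, Picard 1.118 and MACS2 2.1.1. Neither settings nor a role of the input is given in the sources used here. Depth is unknown, and no copy number was measured.

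Entries with identical intervals were merged with the highest score, and coordinates are 1-based. Percentiles and ranks are within a list, and ties share a rank. Overlap means at least 1 shared bp. Intervals for shares are 95% Clopper-Pearson (exact), treat regions as independent and cover counting error only. Work was done in Python 3.11.15 with scipy 1.17.1, pandas 2.3.3, numpy 2.4.6 and matplotlib 3.10.9, and assignment and overlap were tested on simulated data.

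All 10 genes are named. Coordinates are printed for regions at gene starts, the highest-scoring region of each list and window, and NeuroD1 regions on H3K4me3. Alternatives changed the window, the merging, the score limit, the list length and the overlap rule. Members and lists were chosen with earlier results of these data known. Strands came from RefSeq promoters for 7 genes and from general knowledge for CHGB, SCG2 and SEZ6. A planned list of further neuroendocrine genes needed gene positions in hg19, which were not used here.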

Additional observations from a re-analysis of the deposited data

How the results depend on the processing

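Of 62 alternative values for 16 results, 42 stayed within 1.5-fold of the count or inside the interval of the share. Windows of 10 kb left 0 H82 and 11 H524 NeuroD1 regions and 15 and 10 H3K4me3 regions, and 0 genes with NeuroD1 in H82. Windows of 100 kb gave 9 and 46 NeuroD1 regions, 49 and 38 H3K4me3 regions, and 5 genes with NeuroD1 in H82. Counting every entry gave 38 H3K4me3 regions in H524. Keeping each list from its median score upwards left 2 and 11 NeuroD1 regions, 19 H82 H3K4me3 regions, 3 genes with H3K4me3 at the start in H82, 2 with NeuroD1 at the start in H524, and an overlap of 9.09% of H524 NeuroD1 regions with the mark. Equal list lengths left 4 NeuroD1 regions at 3 genes in H524 and 0 genes with NeuroD1 at the start. No paired analysis was possible because each group has 1 library. Depth could not be adjusted for.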

Other observations

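Beyond the 50 kb limit, the lines shared NeuroD1 regions that the windows lacked. Between 50 and 100 kb from the spans, all 5 NeuroD1 regions of H82 overlapped one of H524, beside 53.6% of the whole H82 list and 0 of 4 within 50 kb. H524 had 26 regions at these distances, and 5 of them overlapped one of H82, beside 9.98% of its list. No interval was computed for either share. Up to 100 kb, 5 of 9 H82 regions overlapped NeuroD1 of H524. The distance classes were chosen after the values were known, and the difference was not tested. Upstream of ENO2, H82 chr12:6949138-6949879 scored 13.0 with rank 168 of 3854, and H524 chr12:6948794-6949988 scored 19.5 with rank 649. A second shared ENO2 region was at chr12:6960458-6961498 in H82, where it overlapped H3K4me3 of H82, and at chr12:6960395-6961297 in H524. Upstream of SEZ6, H82 chr17:27393061-27393975 scored 9.94 with rank 309 and H524 chr17:27392883-27394091 scored 13.1 with rank 1668. The SYP pair was at chrX:49125590-49125907 (score 7.73, overlapping H3K4me3 of H82) and chrX:49125564-49126217 (score 8.73), and the CHGB pair at chr20:5809922-5810455 (score 4.92) and chr20:5809928-5810676 (score 11.0). These 5 pairs were 60.1 to 81.5 kb from the spans on the H82 side and were not assigned to a gene.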
